A study of Mus musculus with 2 samples.

Results

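The dense clusters of distal open sites were runs of DNase I hypersensitive peaks that lay close together and away from annotated gene starts in the mouse embryo at embryonic day 10.5. A cluster was built from replicate 1 peaks that overlapped a replicate 2 peak, lay over 1 kb from any GENCODE M21 transcription start site (TSS) and sat on chromosomes 1 to 19. Such distal shared peaks were chained while the gap to the next was 5 kb or less, and chains of 6 or more peaks that spanned 5 kb or more were kept. The clusters were therefore selected on the presence and spacing of the peaks in these same libraries, and their number, size and density are descriptions and not findings. Of 203095 replicate 1 peaks on these chromosomes, 151215 overlapped one of the 223678 replicate 2 peaks, and 110899 of these were distal. They fell into 68143 chains, of which 911 (1.34%) were clusters, and these held 7076 peaks, 6.38% of the distal shared peaks.

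DNase-seq, which sequences the ends left where DNase I cuts accessible DNA, had been run on whole embryos of the B6NCrl strain at 10.5 days, with males and females pooled. The 2 biological replicates formed a single group with the same strain, age and donor label in both, and no treatment or genotype was contrasted. A whole embryo mixes many tissues, so a peak open in few cells and a peak weakly open in many cells cannot be told apart. Each peak is 150 bp wide and carries a score given by the authors, called strength here. Its definition is not stated in the files, so it was used to rank and describe peaks. Raw scores of the replicates are given side by side, and their ratio is given relative to all distal shared peaks, since replicate 2 scored higher in general. The sequencing depth of both libraries is unknown from the files.

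Distal DNase I hypersensitive sites are stretches from which nucleosomes have been displaced, and they include enhancers, silencers, insulators and unannotated promoters. Genes that pattern the embryo, such as those of homeobox, forkhead and SOX transcription factors, are often surrounded by many enhancers, each active in its own tissues, and groups of closely spaced enhancers have been called locus control regions, stretch enhancers or super-enhancers. Transfer RNA genes are also accessible; RNA polymerase III transcribes them from promoter boxes that lie inside the gene, the A box and the B box.

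The strongest peak, by mean strength of both replicates, is shown for 6 of the clusters with most peaks or with most peaks per kb, as the sequence that the cluster's highest signal covered. All are the forward strand of mm10 (GRCm38.p6), read 5′ to 3′, and capitals mark CpG dinucleotides.
Sp9 (chr2:73278596-73278745): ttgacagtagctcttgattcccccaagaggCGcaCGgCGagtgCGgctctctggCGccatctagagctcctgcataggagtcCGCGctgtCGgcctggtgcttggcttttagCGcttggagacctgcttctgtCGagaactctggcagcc
Gbx2 (chr1:89940496-89940645): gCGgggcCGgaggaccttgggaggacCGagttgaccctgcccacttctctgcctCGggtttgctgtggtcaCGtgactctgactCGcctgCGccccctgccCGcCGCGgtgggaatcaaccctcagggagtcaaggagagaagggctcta
Cbx8 (chr11:119053376-119053525): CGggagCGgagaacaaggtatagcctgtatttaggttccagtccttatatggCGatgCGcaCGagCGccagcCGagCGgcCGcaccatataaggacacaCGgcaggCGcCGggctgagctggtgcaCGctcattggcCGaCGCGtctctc
Tmem161b (chr13:84348096-84348245): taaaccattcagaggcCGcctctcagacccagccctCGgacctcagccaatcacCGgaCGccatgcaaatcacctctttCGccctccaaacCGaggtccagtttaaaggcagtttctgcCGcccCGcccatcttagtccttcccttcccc
Dll1 (chr17:15378076-15378225): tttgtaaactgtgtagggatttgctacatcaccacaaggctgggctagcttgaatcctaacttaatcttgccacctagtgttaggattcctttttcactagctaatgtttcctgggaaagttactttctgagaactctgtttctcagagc
Adamts18 1 (chr8:113763956-113764105): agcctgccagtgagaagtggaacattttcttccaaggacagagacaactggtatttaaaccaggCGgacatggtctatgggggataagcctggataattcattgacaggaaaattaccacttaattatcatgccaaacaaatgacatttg
The 16 CpGs of the Cbx8 peak gave an observed to expected CpG ratio of 1.11, against 0.725 with 10 CpGs in the Sp9 peak, 0.613 in the Gbx2 peak, 0.762 in the Tmem161b peak and 0.158 with 1 CpG in the Adamts18 peak. The Dll1 peak held none, so CpG-rich sequence was not shared by the strongest peaks. The median ratio over all cluster peaks was 0.292. By GENCODE M21 the Sp9 and Adamts18 peaks lay in introns, the Dll1 peak in an exon, and the Gbx2, Cbx8 and Tmem161b peaks between genes.

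A second set of peaks carries transfer RNA genes, as described further on; it was chosen after the values were seen. Capitals mark the B box letters GGTTCGA, or TCGAACC where the gene lies on the reverse strand. Each printed peak is the strongest of its cluster among peaks on a transfer RNA gene that hold these letters. The letters are therefore present by selection, and 80 of the 132 cluster peaks on such genes hold them.
Abt1 1 (chr13:23432956-23433105): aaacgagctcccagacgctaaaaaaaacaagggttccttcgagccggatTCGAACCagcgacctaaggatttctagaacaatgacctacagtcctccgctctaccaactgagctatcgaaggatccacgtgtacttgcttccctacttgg
Zfp184 1 (chr13:21937056-21937205): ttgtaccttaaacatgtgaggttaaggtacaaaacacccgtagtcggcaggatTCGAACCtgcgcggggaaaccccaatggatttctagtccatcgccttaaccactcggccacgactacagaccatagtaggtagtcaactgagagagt
Zfp184 2 (chr13:21919236-21919385): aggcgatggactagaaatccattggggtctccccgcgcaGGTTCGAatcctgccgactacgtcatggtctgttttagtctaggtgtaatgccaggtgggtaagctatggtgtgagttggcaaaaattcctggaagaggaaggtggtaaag
Trim27 1 (chr13:21172796-21172945): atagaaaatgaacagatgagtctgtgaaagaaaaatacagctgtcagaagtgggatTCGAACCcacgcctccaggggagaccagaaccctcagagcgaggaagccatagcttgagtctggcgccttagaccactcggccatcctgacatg
The strengths in replicates 1 and 2 were 105 and 129 at the Abt1 peak, 92 and 113 at the first Zfp184 peak, 93 and 116 at the second, and 105 and 119 at the Trim27 peak. All 4 lay between the genes of GENCODE M21.

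The label of distal open sites held for most clusters, with some exceptions. A TSS of some gene lay inside the span of 222 clusters (24.4%), between peaks that were each over 1 kb from it, and a protein-coding TSS lay inside 174 (19.1%). In 26 clusters at least 1 peak covered a transfer RNA gene annotated by RefSeq. The GENCODE file held 0 nuclear transfer RNA genes, so these peaks had counted as distal. RefSeq enhancers, a small curated set, overlapped 214 cluster peaks (3.02%), where 0.911% of all distal shared peaks did. Of the 1010 annotated enhancers, 92 lay under cluster peaks and 593 under any distal shared peak, and 76 clusters (8.34%) held at least 1.

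A cluster held a median of 7 peaks, and 357 held exactly 6, 222 held 7, 136 held 10 or more and 28 held 15 or more. Spans ran from 5.01 to 28.3 kb with a median of 9.91 kb, and came to 9.69 Mb in all. Neighbouring peaks of a cluster were a median of 770 bp apart, with quartiles of 330 and 2310 bp over 6165 gaps. Peaks of 1 replicate can overlap each other, and 219 gaps (3.55%) were such overlaps, while 611 (9.91%) were of 150 bp or less. When peaks 150 bp apart or less were merged, 770 clusters (84.5%) still had 6 or more separate sites.

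Just outside the rule were 1043 chains of 5 peaks, of which 724 spanned 5 kb or more, and 149 of the 1060 chains of 6 or more peaks that were too short. The medians of strength were 51 in replicate 1 and 63 in replicate 2 in chains of 5, and 54 and 65 in clusters of 6, so the clusters nearest the limit resembled the chains just below it. In span, 31 clusters lay within 0.5 kb above the limit and 33 short chains within 0.5 kb below it.

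Cluster peaks were stronger than other distal shared peaks in both replicates, and lone peaks had the lowest medians. The median strength of cluster peaks was 53 in replicate 1 and 68 in replicate 2, against 45 and 54 for the 103823 other distal shared peaks. The difference of medians was 8 in replicate 1 and 14 in replicate 2, a mean of 11 ± 4.24 (SD, n = 2). Since replicate 2 scored higher in general, the SDs of raw scores here and below include that difference of scale. Peaks that stood alone had medians of 42 and 51, those in chains of 2 or 3 had 45 and 56, and those in chains of 4 or 5 had 49 and 61. The order of these classes was the same in both replicates. It did not extend to all long chains: those of 6 or more peaks that spanned under 5 kb had medians of 48 and 66, and clusters of 10 or more had 52 and 74 where clusters of 6 had 54 and 65, so replicate 1 did not rise with peak number among clusters. Among the strongest 10% of distal shared peaks were 18.2% of cluster peaks in replicate 1 and 19.3% in replicate 2, against 9.88% and 9.83% of the others. With 1 group of 2 replicates no test across samples was made.

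GC content followed the same order in these classes. Medians were 48.7% in lone peaks, 50% in chains of 2 or 3, 51.3% in chains of 4 or 5 and 52% in clusters, and the CpG ratio went from 0.204 through 0.232 and 0.261 to 0.292. Chains of 6 or more peaks that spanned under 5 kb were again apart from the order in GC content, at 50.7%. Cluster peaks were in exons in 5.77%, introns in 46.9% and between genes in 47.3% of cases, close to 4.88%, 48.9% and 46.2% for the other distal shared peaks. They were a median of 10.2 kb from the nearest TSS, against 13.9 kb for the others, and the part of this distance in the differences of strength and GC was not tested. Repeats masked most of the sequence in 3.14% of cluster peaks and 4.49% of others. The central 32 bases occurred more than once in the genome in 2.08% of cluster peaks (147). The share was 1.49% in all distal shared peaks and 1.35% in the 6944 cluster peaks that were not on transfer RNA genes.

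**Figure D1:**
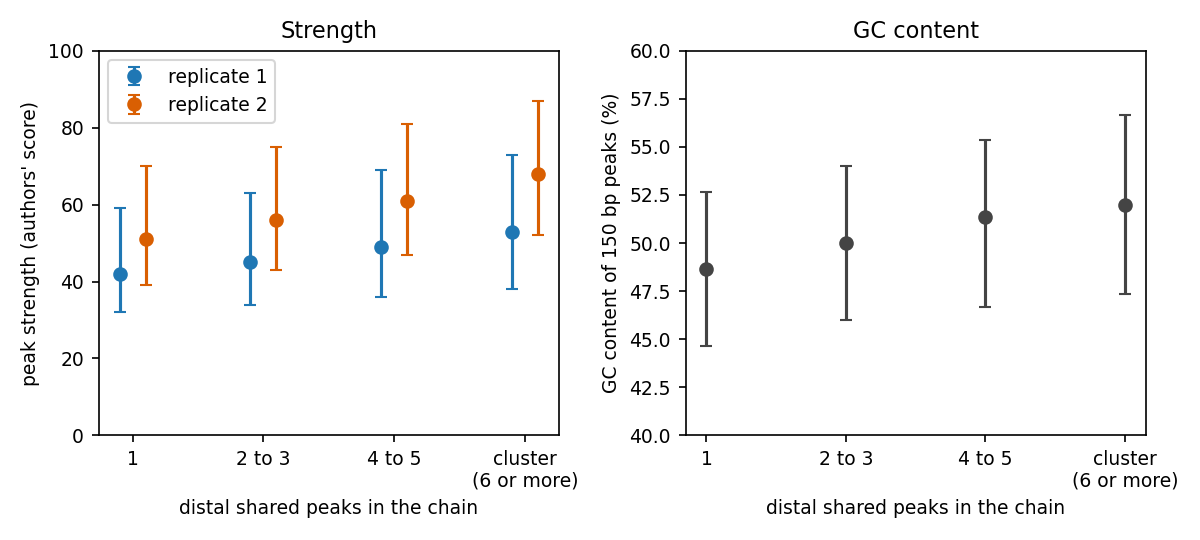
Peak strength in both replicates (left, the authors' score) and GC content of the 150 bp peaks (right, percent, axis from 40 to 60) by the number of distal shared peaks in a chain; points are medians over peaks and bars the quartiles. Chains of 6 or more peaks that spanned under 5 kb are not shown. Medians of strength go from 42 and 51 in lone peaks to 53 and 68 in clusters, and GC content from 48.7% to 52%, while the quartile ranges overlap in all 4 classes.

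Among the 10 clusters with most peaks were several beside genes of developmental transcription factors, such as Sp9, Gbx2, Zic2 and Six2. Clusters are called by the nearest protein-coding gene, which gives a position and not a target. A number after the symbol tells apart several clusters of the same gene. The cluster by Sp9, a zinc finger factor of limb ectoderm and forebrain, held 26 peaks over 22.3 kb at chr2:73263556-73285885. Its median strength was 43 in replicate 1 and 72 in replicate 2, 57.5 ± 20.5 (SD, n = 2), and its peaks ran from 26 to 108 and from 52 to 112. The cluster by Gbx2, the homeobox factor of the anterior hindbrain, held 23 peaks at chr1:89921916-89943485 with medians of 52 and 72. The Zic2 cluster, beside a zinc finger gene of the dorsal neural tube, held 22 peaks with medians of 41 and 76.5.

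The first cluster by Six2, which maintains nephron progenitors, held 20 peaks with medians of 34.5 and 70.5. In the Six2 and Zic2 clusters replicate 2 stood far above replicate 1, with an SD between replicates of 25.1 at Zic2 and 25.5 at Six2.

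Another 3 of the 10 lay by Cbx8, Kdm6b and Tnrc18, and their replicates were closer. The Cbx8 cluster, by the gene of a Polycomb subunit, held 23 peaks with medians of 66 and 81. The Kdm6b cluster, by the gene of a histone H3 lysine 27 demethylase, held 19 peaks from 29 to 136 in replicate 1 and from 38 to 136 in replicate 2. Its medians were 62 and 86, 74 ± 17.0 (SD, n = 2). The Tnrc18 cluster held 20 peaks with medians of 68.5 and 85.

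Among the 10 were also 2 that were weak in both replicates. The first cluster by Adamts18, the gene of a secreted metalloproteinase, held 26 peaks at chr8:113762316-113782625, with medians of 10.5 and 18.5, the lowest of all 911 clusters in both replicates. Its strongest peak, printed above, scored 62 in both, while the other peaks went down to 6 and 7. The second Adamts18 cluster, at chr8:113801816-113821505, held 25 peaks with medians of 13 and 21. The central 32 bases of each of their peaks occurred once in the genome. The rule sets no limit on strength, so runs of weak peaks such as these were kept.

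**Figure D2:**
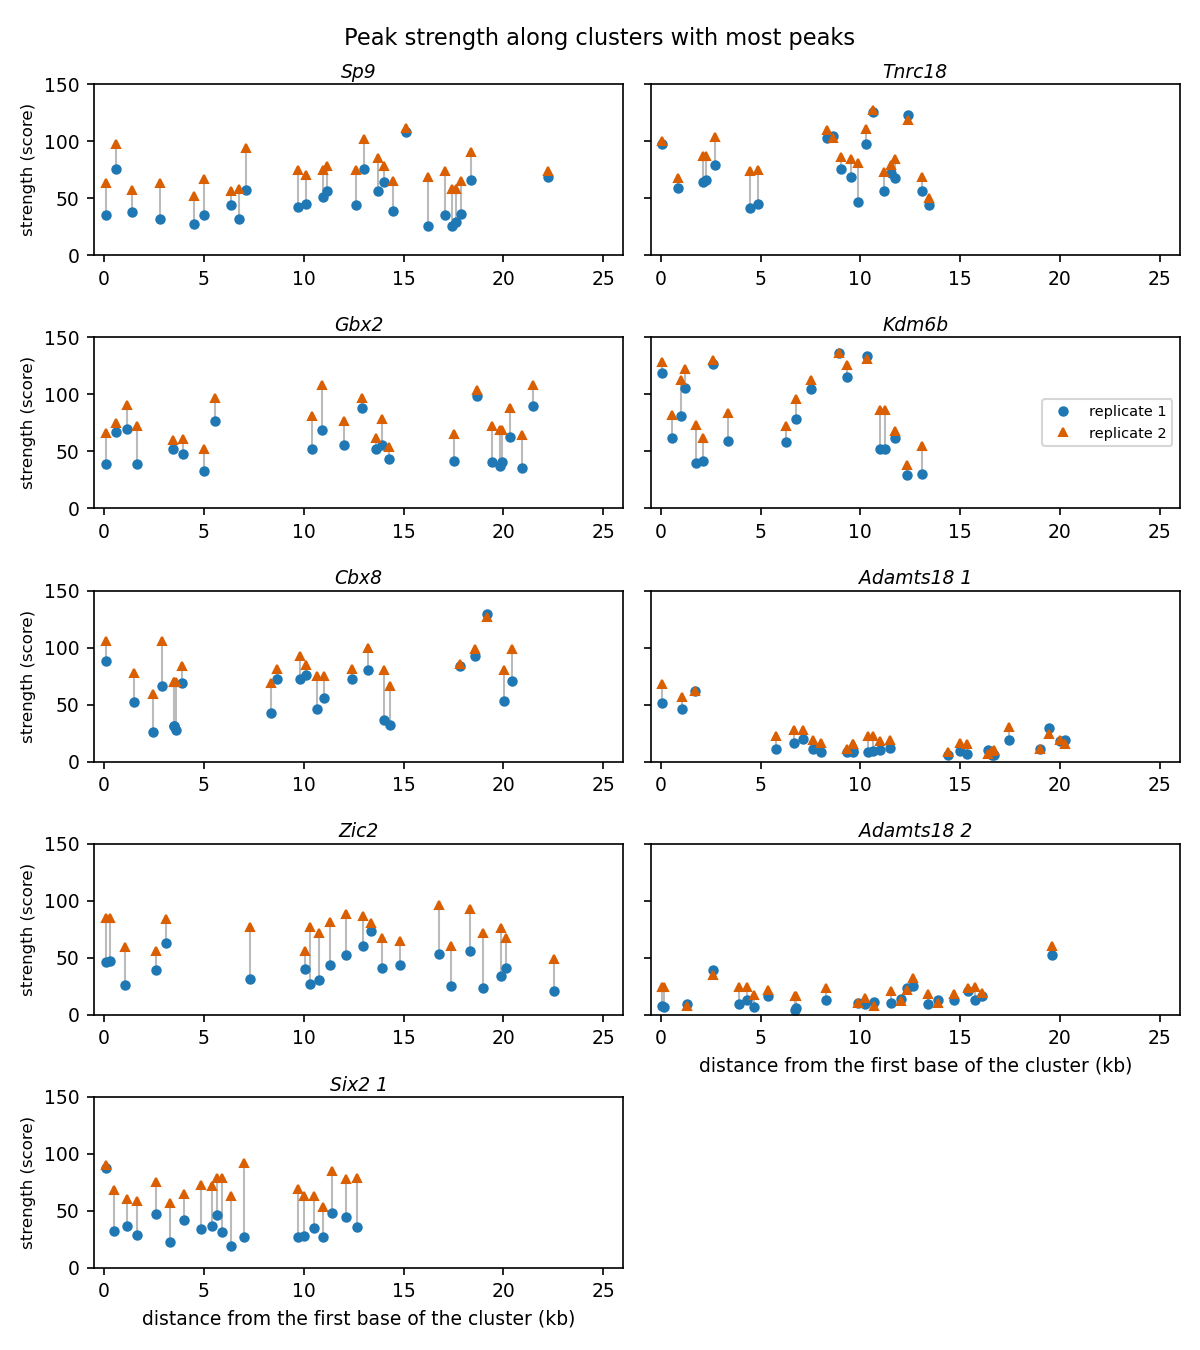
Strength (the authors' score, 0 to 150) of each peak in 9 of the 10 clusters with most peaks, against distance in kb from the first base of the cluster; circles are replicate 1, triangles replicate 2, and a line joins the values of a peak. Replicate 2 lies above replicate 1 at nearly every peak of Six2 1 and Zic2, the replicates meet near the strongest peaks of Kdm6b and Tnrc18, and most peaks of the Adamts18 clusters lie near the bottom of the axis.

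The widest cluster, of 28.3 kb and 16 peaks, lay by Tbx2, a T-box repressor of the heart and limb, with medians of 57.5 and 73.5. After it came the clusters by Laptm5 (26.7 kb, 8 peaks), 1700001O22Rik (25.9 kb, 11 peaks) and Igdcc3 (25.7 kb, 15 peaks). The Laptm5 cluster was the sparsest of all 911, at 0.300 peaks per kb.

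The densest cluster had 2.64 peaks per kb and lay 276 kb from the nearest protein-coding TSS, that of Gm21863. Its 19 peaks merged to 12 sites, 6 had centres that occur more than once, and its medians were 18 and 31. The next densest was by Dll1, the Notch ligand gene, with 11 peaks in 5.57 kb and medians of 55 and 79. The cluster nearest to Tmem161b, 95.2 kb from its TSS, held 11 peaks in 6.27 kb. Its values show how uneven a dense cluster can be: 1 peak, printed above, scored 136 and 140, and the other 10 ranged from 24 to 73 in replicate 1 and from 52 to 94 in replicate 2. The cluster by Nkx2-2, the homeobox factor of the ventral neural tube, held 9 peaks in 5.17 kb with medians of 37 and 72.

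The strongest clusters by replicate 1 median were small. The second Bahcc1 cluster held 6 peaks with medians of 108.5 and 117, 113 ± 6.01 (SD, n = 2). The cluster by Tle3, a Groucho corepressor, held 6 peaks with medians of 104 and 114, and the third by Gse1, a component of corepressor complexes, held 6 with 95 and 101.5. The clusters by Arl5c (94.5 and 123.5) and Ctc1 (93.5 and 116.5) completed the 5, and both covered transfer RNA genes. Besides the Adamts18 pair and the Gm21863 cluster, the weakest were by Zfp991 (14 and 28.5) and Zfp988 (21 and 31), zinc finger genes of a repeated family on chromosome 4.

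Cluster medians ran from 10.5 to 108.5 in replicate 1 and from 18.5 to 123.5 in replicate 2, with a Spearman correlation of 0.823 across the 911 clusters, given as a description since clusters of the same libraries are not independent samples. The strongest peak was the same in both replicates in 706 clusters (77.5%). Within a cluster the strongest and weakest peaks were a median of 56 score units apart in replicate 1 and 53 in replicate 2. These are full ranges, a different measure from the difference of medians between cluster and other peaks. Chaining replicate 2 peaks in place of replicate 1 peaks gave 940 clusters, and 864 of the 911 (94.8%) overlapped one of them.

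Replicate 2 was stronger than replicate 1 at distal shared peaks in general, by 0.27 on the log2 scale at the median. Relative to that median the ratio of replicate 2 to replicate 1 was above 0 in 496 clusters and below 0 in 415. Among cluster peaks 55.0% were above the median ratio (3893 of 7076), where 50% of all distal shared peaks were by construction, and 49.6% of the other distal shared peaks were. Clusters with many peaks differed more, since 105 of the 136 with 10 or more peaks had a ratio above 0, against 161 of the 357 with 6.

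The relative log2 ratio exceeded 0.5 in 31 clusters and the lowest value was −0.36. The 31 had medians of 35 in replicate 1 and 70 in replicate 2, and a median of 12 peaks. Of the 31, 13 had no transfer RNA gene and a nearest gene in none of the gene lists, as did 754 of the 911. The first cluster by Pax6, a paired-box factor of eye and neural tube, had medians of 27 and 61 and a relative log2 ratio of 0.92. Replicate 1 ran from 23 to 57 there and replicate 2 from 59 to 81, so the raw scores did not overlap. These raw scores include the general difference of scale between the replicates.

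Clusters by Dlx5 (23.5 and 65) and Dlx6 (31 and 55), homeobox factors of jaw, limb and forebrain, by Hoxa13 (25 and 65), the homeobox factor of the distal limb, and by Hoxb9 (27 and 50.5) were among the 31. So were those by Dbx1 (35 and 76), Dmrta2 (30 and 66), Bsx (28 and 60.5), Gsc (36 and 72), Gata4 (38 and 82), Isl1 (47 and 81.5), Foxa1 (39 and 72.5), Evx2 (37 and 71.5), Hoxd3 (39 and 75) and Lhx9 (37.5 and 75). Kcnk18, Ostm1 and Adcy5, which are not genes of transcription factors, also named clusters of this set. At the low end were clusters by Zfp536 (the fourth, 45 and 46), Rab37 (64 and 62.5), Dnm3 (71 and 69), Ano2 (53 and 63.5), Mrpl23 (88 and 87.5), Ubl3 (52 and 62.5) and Hhat (83 and 81).

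The authors' hotspots, wider regions of enriched cutting, moved with this ratio. In replicate 2 a hotspot of 2 kb or more touched 271 clusters, against 63 in replicate 1, and 30 of the 31 clusters with a ratio over 0.5 were among the 271. Over all clusters hotspots covered a median of 25.5% of the span in replicate 1 and 33.6% in replicate 2, and over the 31 they covered 54.5% and 91.4%. By Dmrta2 a single replicate 2 hotspot of 15.2 kb covered the whole cluster, where replicate 1 had 21 hotspots, the widest of 1.08 kb. The single replicate 2 hotspot by Isl1, of 7.10 kb, covered its cluster likewise. The number of peaks of each library in the cluster spans, shared or not, came to 8783 and 9686, with more in replicate 2 in 476 clusters, more in replicate 1 in 248 and as many in 187. The part of hotspot width in the ratio was not tested.

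**Figure D3:**
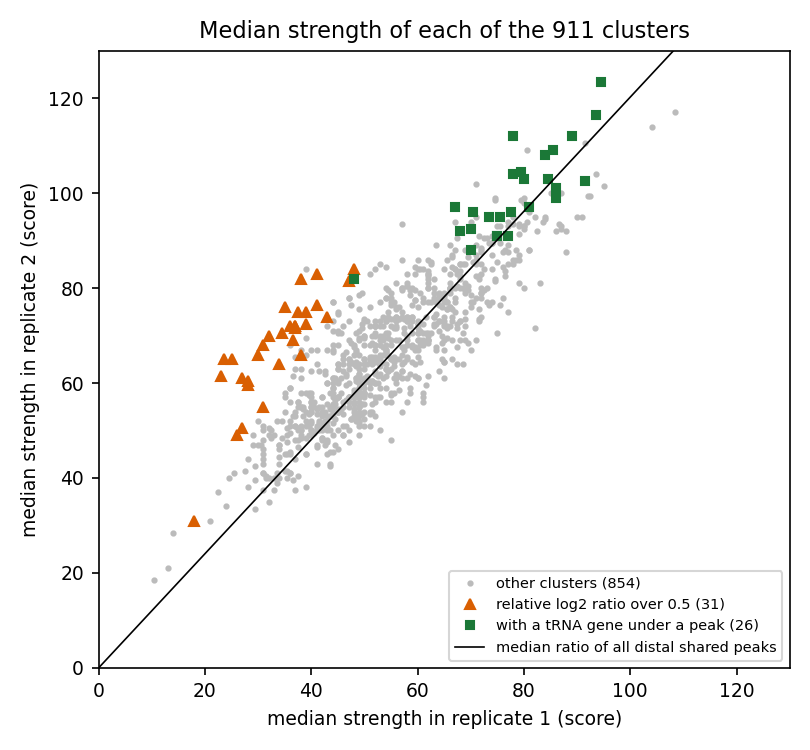
Median strength of each of the 911 clusters in replicate 1 (x) and replicate 2 (y), both as the authors' score from 0 to 130; the line is the median ratio of all distal shared peaks. The 31 clusters with a relative log2 ratio over 0.5 (triangles) lie far above the line at replicate 1 medians of 18 to 48, and the 26 with a transfer RNA gene under a peak (squares) lie mostly at the strong end, the lowest at 48 and 82.

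The clusters had 785 nearest protein-coding genes, 3.78% of the 20780 on these chromosomes. The centre of a cluster was a median of 19.4 kb from the nearest protein-coding TSS, with quartiles of 6.80 and 52.6 kb; 303 clusters (33.3%) were within 10 kb and 240 (26.3%) over 50 kb away. Of the 785 genes, 706 (89.9%) had a promoter peak in both replicates within 1 kb of a TSS, where 71.1% of all protein-coding genes did. Clusters within 10 kb had medians of 55 and 72 and those over 50 kb away had 50 and 61.5. The near clusters thus had higher medians in both replicates, a difference that was not tested.

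A single cluster was nearest to 686 of the genes, and 99 had 2 or more. Zfp608, a zinc finger gene, was the nearest gene of 6 clusters with 52 peaks. Zfp36l1, which encodes an mRNA decay factor, had 5 clusters with 44 peaks, from 2.36 to 361.9 kb away. Their medians ran from 48 to 71 in replicate 1 and from 64 to 84 in replicate 2. Bach2, a bZIP repressor gene, had 5 clusters with 39 peaks, and its medians stayed within 48 to 54 in replicate 1 and 53.5 to 63 in replicate 2. Zfp536 had 5 clusters, all with 6 to 8 peaks, and Zfhx3, a zinc finger homeobox gene, and Foxl1, a forkhead gene of gut mesenchyme, had 4 each. Those nearest to Foxl1 lay 47.8 to 187.5 kb from it. Sox2, the SOX factor of neural progenitors, had 3 clusters, 2 of which flank its TSS region within 14 kb with medians of 56 and 74 and of 51 and 76. Others with 3 included Gse1, Foxp1 and Lrmda. Between neighbouring clusters 81 gaps were of 50 kb or less.

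Lists of 22 gene groups were compared by the share of their genes that were the nearest gene of a cluster. The share of all protein-coding genes was 3.78%. The lists share some genes, so the same cluster can count for several of them. Meis1 was in the limb bud and TALE lists, Gata4 in the heart and liver lists, and Actb in the housekeeping and TEAD lists. The list of nuclear factor I and zinc finger regulators had 13 of 23 genes (56.5%). Those with most peaks were Zfhx3, Prdm16, Mecom and Zfp503, which are not nuclear factor I genes. TALE homeobox genes had 9 of 17 (52.9%) and kidney and intermediate mesoderm genes 9 of 18 (50%). Genes of neural progenitors and patterning had 16 of 33 (48.5%). Corepressors and chromatin regulators had 9 of 21 (42.9%), limb bud genes 11 of 26 (42.3%), genes of Wnt, BMP, FGF and hedgehog signalling 16 of 47 (34.0%) and early neuron genes 7 of 21 (33.3%).

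Lower shares were found for neural crest and craniofacial genes (6 of 23), maternal decidua (3 of 14), liver and gut endoderm (4 of 22), somite and skeletal muscle (4 of 23), heart (4 of 23), TEAD, Hippo and actin regulation (3 of 20), Hox genes (5 of 39) and housekeeping genes (2 of 18). Endothelium had 2 of 22, primitive erythroid genes 1 of 16, trophoblast and placenta 1 of 18, and late or adult tissue 1 of 29. Definitive blood and immune genes had 0 of 18 and yolk sac visceral endoderm 0 of 16. Several of these low shares were higher when a peak did not need to be in both replicates, as was the share of all genes. The high share of the neural progenitor list rose too, to 93.9% with replicate 2 peaks alone and 54.5% with replicate 1 peaks alone. With replicate 2 peaks alone, where 10.1% of all genes were nearest to a cluster, endothelium had 50% of its genes, heart 60.9%, trophoblast and placenta 27.8% and definitive blood and immune 22.2%, and with replicate 1 peaks alone, where 8.09% of all genes were, the same lists had 22.7%, 30.4%, 11.1% and 5.56%. The maternal decidua list rose as well, to 42.9% with replicate 2 peaks alone and 35.7% with replicate 1 peaks alone. With shared peaks it was represented by Wnt4, Des and Cebpb, none of which is restricted to decidua. Its prolactin-family genes named no cluster with shared peaks. Whether decidua contributed to the libraries was not tested.

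The amount of sequence that lies nearest to a gene differed widely between the lists and was not adjusted for. A protein-coding gene was the nearest to a median of 43.6 kb. The median was 433 kb for genes of the nuclear factor I and zinc finger list, 376 kb for corepressors and 302 kb for TALE genes. It was 219 kb for neural progenitor genes and 10.1 kb for Hox genes. Per Mb nearest to the genes there were 0.370 clusters over all genes. There were 1.46 for the nuclear factor I and zinc finger list, 1.42 for corepressors and 2.11 for TALE genes. Neural progenitor genes had 2.19 and Hox genes 5.93, the last from 5 clusters. Housekeeping genes, with 2 clusters, came second at 2.83 per Mb, early neurons stood at 1.75, somite and skeletal muscle at 1.71, maternal decidua at 1.29 and late or adult genes, with 1 cluster, at 0.371. Primitive erythroid genes stood at 0.896, trophoblast and placenta at 0.711, heart at 0.591 and endothelium at 0.572, each above the 0.370 of all genes. These lists had 1, 1, 4 and 2 clusters. Definitive blood and yolk sac genes had 0. The order of the lists per Mb thus differed from that by share. The nuclear factor I and zinc finger, corepressor, TALE, neural progenitor and Hox lists ranged from 1.42 to 5.93. Housekeeping, early neuron and somite genes lay within that range. The erythroid, trophoblast, heart, endothelium, late or adult, blood and yolk sac lists lay below it.

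**Figure D4:**
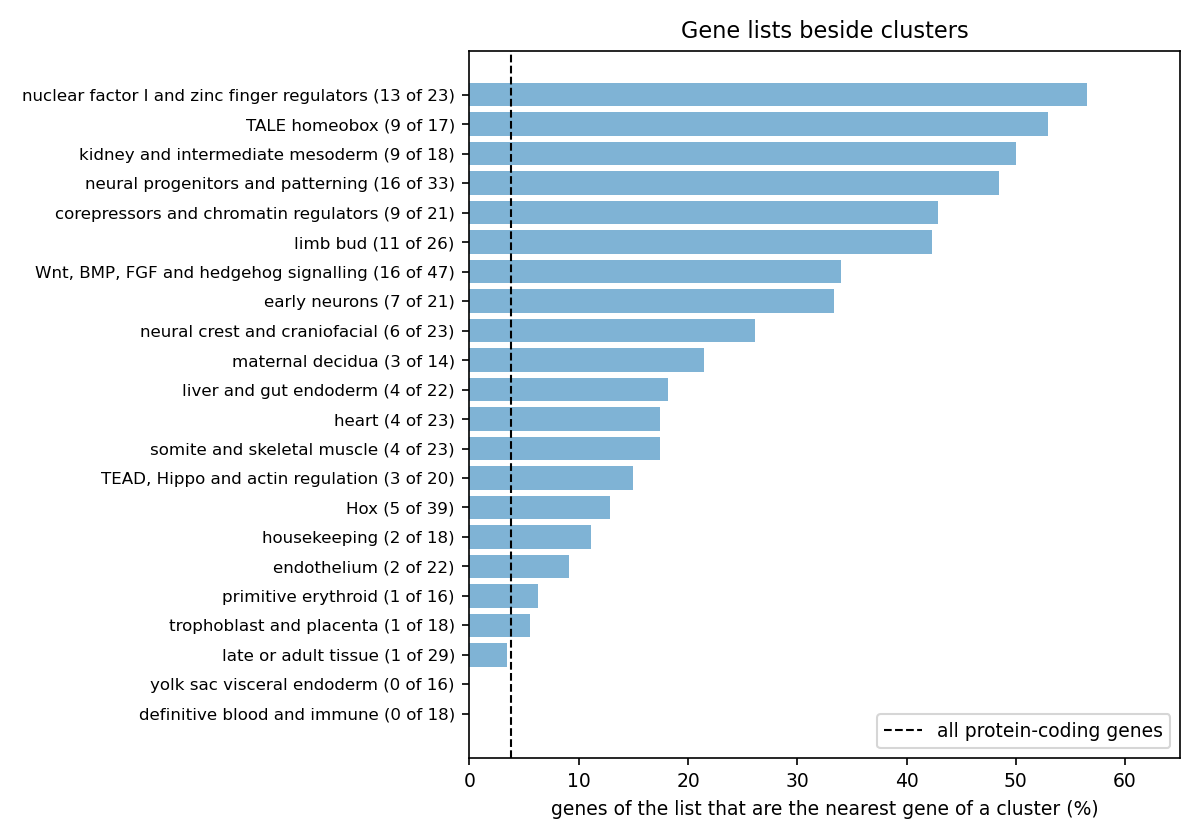
Share of the genes of each list (percent, bars from 0) that are the nearest protein-coding gene of at least 1 cluster, with the counts beside the names; the dashed line is the share of all protein-coding genes, 3.78%. The 6 lists from the nuclear factor I and zinc finger list to limb bud genes reach 42.3% to 56.5%. Hox genes are at 12.8%, and definitive blood and yolk sac genes are at 0.

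Among the genes of neural progenitors and patterning, the 24 clusters held 250 peaks and had medians of 54.5 in replicate 1 and 76 in replicate 2. Besides those by Sox2, Gbx2, Zic2 and Pax6 they included those by Irx5 (15 peaks, 57 and 80) and Irx3 (11 peaks, 38 and 55), which pattern the neural tube. Hes1 and Notch1 of the Notch pathway had clusters of 7 peaks each, with 71 and 87 and with 82 and 95. Sox1, Otx2 and Olig2 of the same list named none. Of the early neuron genes, Neurog2, the proneural bHLH factor, had 11 peaks with medians of 68 and 85, Tlx3 had 11 with 44 and 55, and Ebf3 had 2 clusters, of 12 and 6 peaks. Tubb3 and Stmn2, genes of neuronal structure in that list, named none.

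In the limb and kidney lists, Meis1, a TALE factor of the proximal limb, had 3 clusters with medians from 46.5 to 63 and from 56.5 to 82, the farthest 334.5 kb from its TSS. Meis2 had 13 peaks with medians of 59 and 74. The cluster by Shh, the hedgehog ligand of limb and floor plate, held 10 peaks, 2 of them on RefSeq enhancers, with medians of 48 and 67.5. Sall1, Wnt11 and Pax2, genes of the early kidney, had clusters of 10, 7 and 6 peaks. Their medians were 56.5 and 76, 58 and 56, and 62 and 69. Tbx5, Pitx1 and Fgf10 of the limb list named none.

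Of the signalling genes, Id3, a target of BMP signals, had a cluster of 16 peaks with medians of 67.5 and 83, and Axin2, a target of Wnt signals, had one of 10 with 47.5 and 68.5. Bmp7 had 2 clusters (72 and 79, 71.5 and 82.5) and Hhip, a hedgehog antagonist, had 2 (40 and 50, 37.5 and 56). Zfp503 and Prdm16 of the zinc finger list had clusters of 17 and 14 peaks, with 74 and 87 and with 43.5 and 53. Mecom had 3 clusters, of which the one by its TSS had medians of 41 and 83. Rere and Chd7, both corepressor or chromatin genes, had 2 clusters each. Gata4, Tbx2, Irx4 and Isl1 were the heart list's 4, all factor genes, while the sarcomere genes Tnnt2, Myh6 and Myh7 named none. Cdh5 (73 and 90.5) and Fli1 (56 and 73) were the endothelial genes, Zfpm1 (64 and 78) the erythroid one, Tfap2c (37 and 65.5) the trophoblast one and Scgb1a1 (31.5 and 40) the adult one. The promoter of Scgb1a1 had no peak in either replicate.

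The 26 clusters with a transfer RNA gene under a peak held 266 peaks, of which 132 lay on transfer RNA genes, and 20 of them had 3 or more such peaks. These were 55.9% of the 236 distal shared peaks on transfer RNA genes, and 100 of the 386 annotated genes (25.9%) lay under cluster peaks. The median strength of the 132 peaks was 83 in replicate 1 and 105.5 in replicate 2, and that of the 6944 other cluster peaks was 52 and 67. By cluster, medians ran from 48 to 94.5 in replicate 1 and from 82 to 123.5 in replicate 2. The relative log2 ratio had a median of 0.09 and stayed between −0.08 and 0.33, so none of these clusters was among the 31.

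Of the 26, 13 lay on chromosome 13 between 21.2 and 23.5 Mb, a stretch that also holds replication-dependent histone genes, and they were 13 of the 14 clusters there. The first Abt1 cluster, at chr13:23425596-23438845, held 17 peaks, 11 on transfer RNA genes, with medians of 68 and 92. The first Zfp184 cluster, at chr13:21927816-21941305, held 14 peaks, 11 on transfer RNA genes, with 81 and 97, and the second held 12, 10 on such genes, with 85.5 and 109. The first Trim27 cluster held 16 peaks, 8 on such genes, with 79.5 and 104.5. Outside chromosome 13, a cluster by Olfr1423 on chromosome 19 held 15 peaks, 8 on such genes, with 89 and 112. The Hfe2 cluster on chromosome 3, among the 5 densest, held 12 peaks, 7 on such genes, with 84.5 and 103.

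The sequences of these peaks stood apart from the rest. The B box letters GGTTCGA, searched on both strands, were found in 80 of the 132 peaks (60.6%), in 0.202% of the other cluster peaks and in 0.270% of all distal shared peaks. The CpG ratio was 0.790 at a GC content of 48.7%. The central 32 bases occurred more than once in the genome in 53 of the 132 (40.2%), against 1.35% of the other cluster peaks, so 1 transfer RNA gene could not always be told from its copies. Multi-copy centres made up at least as many as the unique ones in 2 clusters, the first Zfp184 cluster (7 of 14) and the Cdk6 cluster (6 of 9), the latter with no transfer RNA gene and medians of 39 and 52.

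Motif letters were searched on both strands of the 150 bp peaks, for 25 motifs; a match is a description of the sequence and not a bound site. Those of GC-rich recognition were found in more cluster peaks than other distal shared peaks. The SP/KLF letters GGGCGG were in 10.2% of cluster peaks, 5.96% of the other distal shared peaks and 6.22% of all. The TFAP2 letters GCCNNNGGC were in 7.19%, 5.30% and 5.42%, and the ETS letters CCGGAAG in 1.63%, 1.17% and 1.19%. Within classes of GC content the SP/KLF shares came closer: for cluster and other peaks in turn they were 0% and 0.660% at up to 40% GC, 3.16% and 2.24% at over 40 to 50%, 10.4% and 8.02% at over 50 to 60%, and 34.1% and 32.5% above. The class of up to 40% GC held 261 cluster peaks and 6667 others. In the classes of up to 60% GC the TFAP2 and ETS shares were higher in cluster peaks. From low to high GC they were 2.68% and 1.00%, 3.47% and 3.21%, and 8.36% and 7.11% for TFAP2. For ETS they were 0.383% and 0.195%, 0.975% and 0.657%, and 1.93% and 1.66%. Above 60% GC the TFAP2 shares (15.3% and 16.8%) and the ETS shares (2.77% and 3.46%) were lower in cluster peaks.

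The CTCF core, the recognition sequence of the insulator protein, was the motif with the lowest ratio of the 25. It was in 231 cluster peaks (3.26%), in 5.48% of other distal shared peaks and in 5.34% of all. The share was lower in clusters in each of the 4 classes of GC content, with 1.92% and 8.13% at up to 40% GC, 2.73% and 4.79% at over 40 to 50%, 3.71% and 5.98% at over 50 to 60%, and 3.50% and 4.74% above. The widest of these differences rests on the smallest class, with 261 cluster peaks. The RFX letters GTTGCCAT (1.06%, 1.55% and 1.52%), the AP-1 letters TGANTCA (4.31%, 5.55% and 5.47%) and the homeobox letters TAATTA (3.42%, 4.33% and 4.28%) were also less frequent. The AP-1 and RFX shares were lower in clusters in each of the 4 classes of GC content. At over 40 to 50% GC they were 4.76% and 6.02% for AP-1 and 0.936% and 1.65% for RFX. At over 50 to 60% they were 4.47% and 5.13%, and 1.26% and 1.48%. The homeobox difference was small within classes of GC content (5.23% and 5.49% at over 40 to 50%, 2.13% and 2.37% at over 50 to 60%) and turned round above 60% GC (1.57% and 0.851%). The E-box CAGATG was in 16.7%, 20.02% and 19.8%, and CAGCTG, the palindromic E-box, in 16.4%, 17.3% and 17.2%. The GATA letters AGATAAG differed little (1.41%, 1.52% and 1.52%), as did the TALE letters TGACAG (14.5%, 15.3% and 15.3%). Some sequences that match the CTCF core contain CAGATG, so these counts are not independent.

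**Figure D5:**
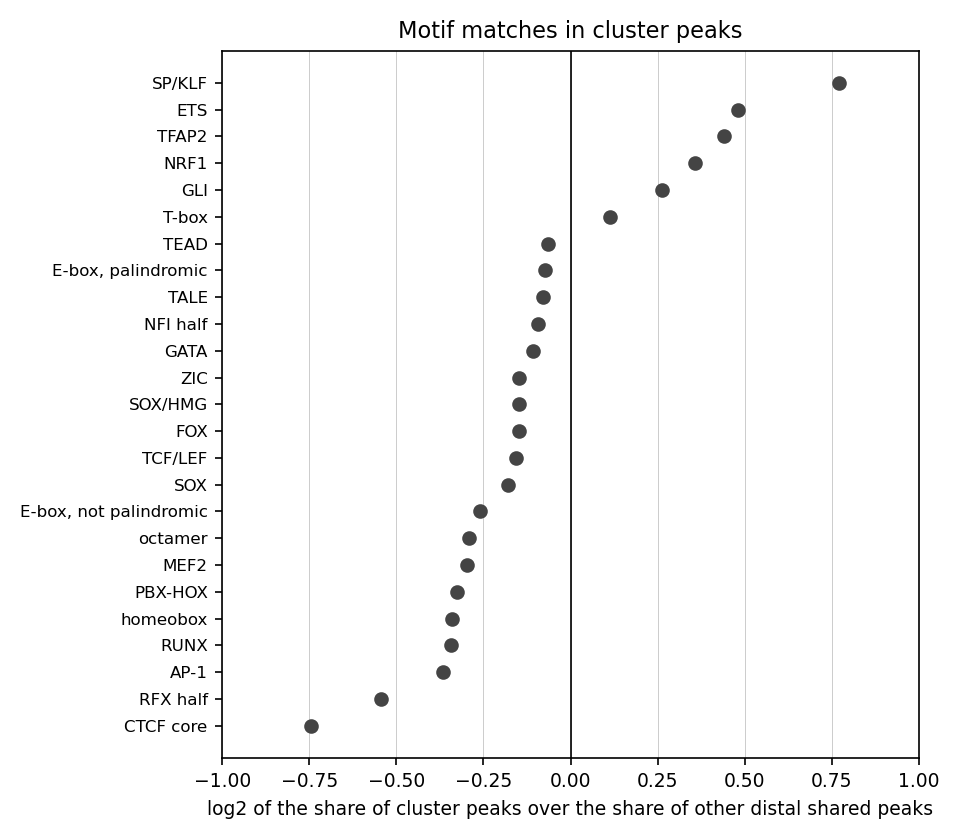
Log2 ratio of the share of cluster peaks with a motif match to the share of other distal shared peaks, for 25 motifs searched on both strands; each point is 1 motif, and points right of 0 are motifs found in more cluster peaks. SP/KLF lies farthest to the right (10.2% and 5.96%) and the CTCF core farthest to the left (3.26% and 5.48%).

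Chromosome 11 held 88 clusters, 7.21 per 10 Mb and 10.02% of its distal shared peaks, the most of the 19 chromosomes by each measure. Chromosome 16 held 16, 1.63 per 10 Mb and 3.23% of its distal shared peaks, the fewest by each. Bahcc1, Cbx8, Kdm6b, Tbx2 and Ctc1, named above, were on chromosome 11. Chromosome 2 held 87 clusters, 4.78 per 10 Mb and 7.38% of its distal shared peaks, among them those by Sp9, Pax6 and Nkx2-2.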

How the data were processed

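DNase-seq of 2 biological replicates of whole mouse embryos was analysed as 1 group. Per the deposited text beside the files, the authors made both peaks and hotspots for each replicate on mm10. The aligner and caller: not given in the sources used here. The deposited peaks are 150 bp wide and carry the authors' score (strength). The deposited hotspots carry the −log10 of a q-value, not used to filter.

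Peaks were shared at an overlap of 1 bp or more, and strength was paired with the replicate 2 peak of largest overlap. TSSs came from GENCODE M21, genome sequence, transfer RNA genes and enhancers from RefSeq GRCm38.p6, which shares its chromosome sequences with mm10. The relative ratio is the log2 ratio of replicate 2 to replicate 1 strength less its median over all distal shared peaks. Chaining, overlap and TSS distance were tested on simulated data, with Python 3.11.15, numpy 2.4.6 and pandas 2.3.3. The clusters named are the 10 with most peaks and the 5 widest, densest, strongest and weakest, the genes nearest to 3 or more clusters (at most 10) and up to 4 genes per list with most peaks; others were named after their values were seen, and a few clusters are not reported here. The clusters, the 22 gene lists and the 25 motifs were chosen with earlier results of these data known. Alternatives changed the gap, the peak number, the TSS distance and set, the overlap, the strength cut, the unit chained and the replicates used. Since depth is unknown, intervals that rest on it were left out, and no p-value was computed.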

Additional observations from a re-analysis of the deposited data

Results flagged for a closer look

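Chromosomes X and Y were outside the clusters described above. By the same rule 11 clusters lay on chromosome X, with 92 of its 2437 distal shared peaks (3.78%), and 1 lay on Y. The X cluster with most peaks was nearest to Olfr1324, 181.8 kb away, with 19 peaks and medians of 50 in replicate 1 and 68 in replicate 2. Bcor, a corepressor gene, was the nearest gene of 3, with 14, 8 and 6 peaks and medians of 44.5 and 59.5, 73.5 and 82.5, and 40.5 and 47.5.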

How the results depend on the processing

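The number of clusters depended on the spacing rule: 911 became 220 with a gap of 2.5 kb, 2529 with 10 kb, 332 with at least 8 peaks and 387 with the stronger 50% of replicate 1 peaks. Leaving out either replicate, so that peaks need not be shared, gave 2202 to 2781. The share of distal shared peaks in clusters went from 6.38% to 1.66%, 18.3% and 3.05% with the first 3 of these and to 11.5% to 16.0% without a replicate; the nearest genes went from 785 to 207, 1970, 303 and 342, and to 1682 to 2101 without a replicate. The median of 7 peaks became 9 with at least 8 peaks and 7 to 8 without a replicate. The GC difference of 2.67 percentage points became 2 at 2.5 kb from a TSS and 2 to 2 without a replicate. The 6 other alternatives for the number of clusters gave 666 to 1087, among them leaving out peaks within 1 kb of a transfer RNA gene (884), which was chosen after seeing the data. The strength difference of 11, a mean over the replicates, stayed between 9 and 12 under the alternatives that kept both replicates. Without a replicate it is the difference of the other replicate alone. It was 7 in replicate 1, beside 8 with shared peaks, and 9 in replicate 2, beside 14. The nuclear factor I and zinc finger list ranged from 26.1% to 82.6% of its genes over the 12 alternatives. The neural progenitor list ranged from 27.3% to 93.9%. All genes ranged from 0.996% to 10.1%. The kidney list, at 50%, fell to 5.56% with a gap of 2.5 kb and 11.1% with at least 8 peaks, and the neural crest list, at 26.1%, to 0% with the stronger 50% of replicate 1 peaks, settings that leave fewer clusters. No paired analysis was possible because there is 1 group. Whether peaks missing from 1 replicate fell below its depth cannot be told, since depth is unknown.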
